A study of Mus musculus with 8 samples.

Results

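The RNA levels of SR proteins, heterogeneous nuclear ribonucleoproteins (hnRNPs), the kinases of SR proteins and further splicing regulators were measured in mouse liver. With earlier results of these data known, genes were listed by family and function. The group holds 52 genes of the 45706 gene identifiers in the deposited table. It comprises 8 classical SR proteins (*Srsf1* to *Srsf7* and *Srsf9*), 5 SR-like proteins (*Srsf10*, *Srsf11*, *Srsf12*, *Tra2a* and *Tra2b*), 22 hnRNPs and PTB proteins, 6 kinases and 11 SR-related and other splicing regulators. Livers of 4 mice labelled *Srsf10-kd* were compared with livers of 4 mice labelled *Ctrl*. All were male mice of a strain written C56B6/J, injected at 6 weeks of age with an AAV2/8 vector that carries a mirE/shRNA under the CBA promoter, against *Srsf10* or a control. From 4 weeks after injection all 8 ate, for 12 weeks, a high fat diet in which fat gives 60% of calories, so none of these livers comes from a mouse on control diet. CBA is a promoter active in many cell types, and whole liver was sequenced, so that fewer cells of a type and less RNA per cell cannot be told apart. The labels number the livers within each group, and each liver was taken to come from a separate mouse. The p-values set the difference between labels against the spread between livers of the same label.

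SR proteins bind exons through RNA recognition motifs and recruit the spliceosome through a domain rich in arginine and serine. Kinases of the CLK family in the nucleus and of the SRPK family in the cytoplasm phosphorylate that domain and so set where SR proteins are and what they do. hnRNPs coat nascent RNA and often oppose SR proteins at the same exons. Many genes of these families limit their own level by splicing in an exon that sends the transcript to nonsense-mediated decay. A count per gene sums such transcripts with those that are translated.

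Levels are given as CPM, a gene's counts scaled to a common library size after TMM normalization. Totals ranged from 50456404 to 59697241 counts per liver. Differences are log2 fold changes of livers labelled *Srsf10-kd* over *Ctrl* tested in edgeR (quasi-likelihood, two-sided), and p-values were adjusted by Benjamini-Hochberg across the 15491 genes tested. A pair of livers stood apart from their groups, *Srsf10-kd* 3 and *Ctrl* 3, and the counts of each liver depended to a different degree on transcript length. Each gene's log2 CPM was taken relative to its mean over all livers and regressed on log2 transcript length. The slope was -0.18 in *Srsf10-kd* 3 and -0.06 to -0.02 in the other livers of that label. It was -0.03 in *Ctrl* 3 and 0.09 to 0.13 in the other *Ctrl* livers. These slopes compare livers with each other, and their signs do not give the trend within a liver's own counts. Hepatocyte markers led in every liver, with a summed level of 82681 to 115779 CPM over 6 measured markers, against 1.42 to 2.96 CPM for 5 lymphocyte markers. Macrophage and stellate cell markers (132 to 251 and 167 to 289 CPM, 6 each) overlapped between groups and none had an unadjusted p under 0.05. Of 5 endothelial markers, whose sums overlapped (166 to 195 CPM), *Lyve1* and *Pecam1* were higher and *Stab2* lower at that threshold. Among the lymphocyte markers *Cd79a*, at 0.42 to 0.97 CPM, was higher at that threshold (log2 fold change 0.55). Cholangiocyte markers, whose sums did not overlap between groups, are given below with *Esrp2*.

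*Srsf10* (ENSMUSG00000028676), an SR-like protein that represses splicing when dephosphorylated and the gene targeted by the vector, lies on chromosome 4 from 135855747 to 135869908 (GRCm38). It stood at 34.3, 34.0, 41.0 and 36.5 CPM in livers *Srsf10-kd* 1 to 4. In livers *Ctrl* 1 to 4 it stood at 31.6, 33.7, 35.3 and 30.9 CPM. The groups overlapped, and the *Srsf10-kd* mean was the higher, with a log2 fold change of 0.15 (SE 0.10, 95% interval -0.07 to 0.37, adjusted p = 0.378 by edgeR's quasi-likelihood test). The interval excludes a fall by more than 0.07 on the log2 scale. In these counts per gene the targeted gene does not separate the groups in the direction of the label, and groups are named by label below. Of its stretches of 75 bases, 8.50% also occur in transcripts of other genes (*Gm5446*, *Gm9134* and AC126031.3).

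The primers with which the study measured *Srsf10* RNA by qPCR show which exons that assay reads. They lie on the plus strand at chr4:135858370-135858389 (forward) and at chr4:135861824-135861843 (reverse, the opposite strand), and both are coding sequence. The sequences are given 5′ to 3′ in lower case.
mmSrsf10 E2F: atttctacactcggcgtcca
mmSrsf10 E4R: ctgacgcccacaaatccatt
Of 10 *Srsf10* transcripts in GENCODE M21, 5 hold both sites, among them all 4 protein-coding ones, where the product spans 110 bases from exon 2 to exon 3. In the non-coding *Srsf10-201* an additional exon makes it 506 bases. A count per gene takes reads from all 10 transcripts, including the 5 that this primer pair would not amplify.

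Of the 52 genes, 51 had enough counts to be tested. The exception was *Srsf12*, a rarely expressed SR-like protein, at 0 to 0.107 CPM over the 8 livers. None of the 51 passed an adjusted p of 0.05 in edgeR, where 0.0710% of all tested genes did. At an unadjusted p under 0.05 there were 8 members higher (15.7%, background 11.2% of all genes) and 3 lower (5.88%, background 10.6%) in livers labelled *Srsf10-kd*. Together these are 21.6% of members, against 21.8% of all genes, so as fitted the share of members past this threshold was close to that of all genes. After removal of the trend on transcript length it was 23.5% of members, against 15.5% of all genes. The groups did not overlap for 5 members that were higher (9.80%, background 6.73%) and 2 that were lower (3.92%, background 7.53%). DESeq2 called 3 members, all higher (5.88%, background 2.50%), and none lower (background 3.26%). limma-voom with sample quality weights called 6 higher (background 5.03%) and 2 lower (background 6.68%). The median log2 fold change of the 51 members was 0.10, and it was 0.01 over all tested genes.

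**Figure D1:**
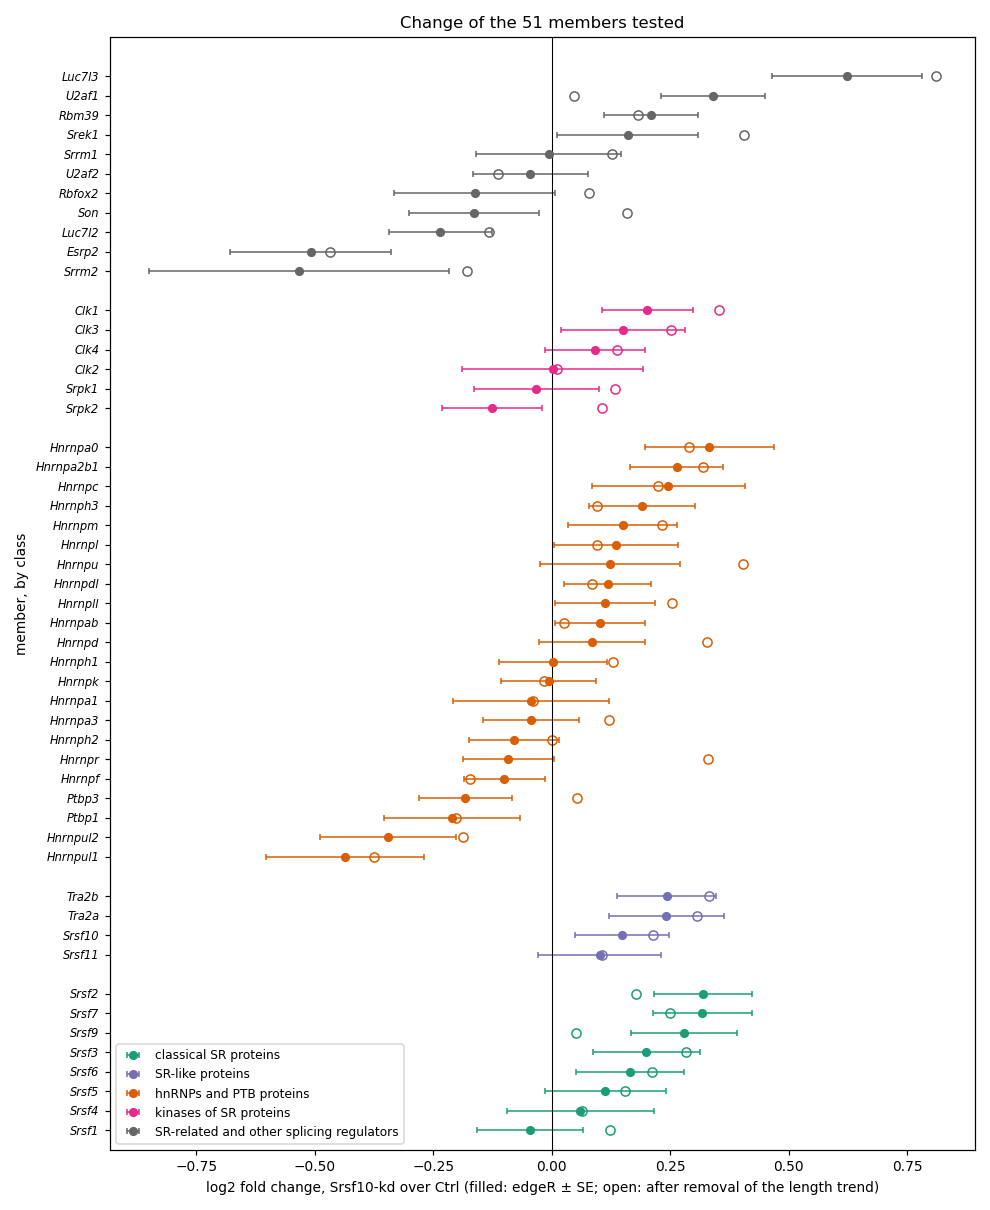
Log2 fold change (horizontal axis) of each of the 51 members tested, by class, in 4 livers labelled *Srsf10-kd* over 4 *Ctrl* livers; filled points and bars are the edgeR estimate ± SE, open points the estimate after removal of the trend on transcript length. Of the filled points 31 lie above 0 and 20 below, from -0.53 for *Srrm2* to 0.62 for *Luc7l3*; after removal of the length trend 41 lie above 0.

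Means were higher under the *Srsf10-kd* label for 7 of the 8 classical SR proteins, where 51.3% of all tested genes had the higher mean. Their median log2 fold change was 0.18, and 3 of 8 (*Srsf2*, *Srsf7* and *Srsf9*) were higher at an unadjusted p under 0.05 (background 11.2%). Summed over the class, *Ctrl* livers held 637 ± 38.0 CPM (SD, n = 4) and the other group 711 ± 30.9 CPM (SD, n = 4). These sums did not overlap (582 to 664 against 671.9 to 744 CPM).

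*Srsf2* (ENSMUSG00000034120, chr11:116849901-116853094), which binds exonic enhancers and releases paused RNA polymerase II, stood at 131, 139, 149 and 139 CPM in *Srsf10-kd* 1 to 4. It stood at 119.6, 121, 99.9 and 106 CPM in *Ctrl* 1 to 4. Every liver labelled *Srsf10-kd* lay above every *Ctrl* liver, with the lowest *Ctrl* level in *Ctrl* 3. The log2 fold change was 0.32 (SE 0.10, adjusted p = 0.152 in edgeR and 0.0471 in DESeq2; 0.0471 to 0.436 over the alternatives). After removal of the length trend it was 0.18, and the groups then overlapped. *Srsf2* shares 18.5% of its 75-base stretches with *Mettl23* and *Mfsd11*, which overlap it on the opposite strand, and the strand setting of the counts is not given in the sources used here.

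*Srsf7* (ENSMUSG00000024097, chr17:80200080-80207307), which shuttles to the cytoplasm and promotes mRNA export, was the least abundant classical SR protein per length. It stood at 38.2, 35.7, 36.2 and 42.0 CPM in *Srsf10-kd* 1 to 4. The *Ctrl* livers 1 to 4 held 27.8, 30.2, 34.7 and 29.4 CPM, so the groups did not overlap, with *Ctrl* 3 the nearest to the other group. The log2 fold change was 0.32 (SE 0.10, adjusted p = 0.154 in edgeR, and 0.0172 to 0.343 over the alternatives). After removal of the length trend it was 0.25, and the groups then overlapped. No stretch of 75 bases was shared with another gene.

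*Srsf9* (ENSMUSG00000029538, chr5:115327177-115333080), a small SR protein with a short arginine and serine domain, stood at 23.1, 20.1, 27.4 and 23.2 CPM in *Srsf10-kd* 1 to 4. In *Ctrl* 1 to 4 it stood at 20.2, 18.0, 18.9 and 20.03 CPM. The groups touched, since *Srsf10-kd* 2 lay below *Ctrl* 1. Its log2 fold change was 0.28 (SE 0.11, adjusted p = 0.201 in edgeR), which became 0.05 after removal of the length trend.

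*Srsf5*, an SR protein induced in many proliferating and insulin-treated cells, was the most abundant of the class, at 117 ± 13.2 CPM per kilobase of its longest coding transcript (SD, n = 8). It stood at 168, 200.4, 194 and 204 CPM in *Srsf10-kd* 1 to 4 and at 176, 185, 144 and 202 CPM in *Ctrl* 1 to 4. The groups overlapped, and the log2 fold change was 0.11 (SE 0.13, adjusted p = 0.594 in edgeR). The other members of the class were *Srsf1*, the prototype of the family (log2 fold change -0.05), *Srsf3* (0.20), *Srsf4* (0.06) and *Srsf6* (0.17). None of these had an unadjusted p under 0.05. *Srsf4* shares 37.8% of its 75-base stretches with *Gm12992*, on the opposite strand, so its value is uncertain. *Srsf1* was the only member of the class with a lower mean, and its estimate was 0.12 after removal of the length trend.

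All 4 SR-like proteins tested had higher means under the *Srsf10-kd* label (median log2 fold change 0.19), and 1 was higher at an unadjusted p under 0.05 (background 11.2%). This was *Tra2b*, which activates exons rich in GAA repeats, at 40.9 to 48.4 CPM in livers labelled *Srsf10-kd* and 34.4 to 42.2 CPM in *Ctrl* livers (log2 fold change 0.24, SE 0.10, adjusted p = 0.218 in edgeR). Its paralogue *Tra2a* gave the same log2 fold change of 0.24 (SE 0.12, adjusted p = 0.264 in edgeR). limma-voom with sample quality weights called both (adjusted p = 0.0218 for *Tra2b* and 0.0352 for *Tra2a*), and DESeq2 called neither (0.179 and 0.265). *Srsf11*, an SR-like protein that also binds telomerase RNA, was the most abundant of the class per length, at 25.4 ± 3.07 CPM per kilobase (SD, n = 8). It stood at 75.7, 79.3, 96.8 and 75.4 CPM in *Srsf10-kd* 1 to 4 and at 81.8, 81.8, 62.2 and 79.2 CPM in *Ctrl* 1 to 4. *Srsf10-kd* 3 was the highest and *Ctrl* 3 the lowest, and the log2 fold change of 0.10 turned to -0.08 without this pair of livers. *Srsf10* was the least abundant of the class, at 9.23 ± 0.834 CPM per kilobase (SD, n = 8).

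**Figure D2:**
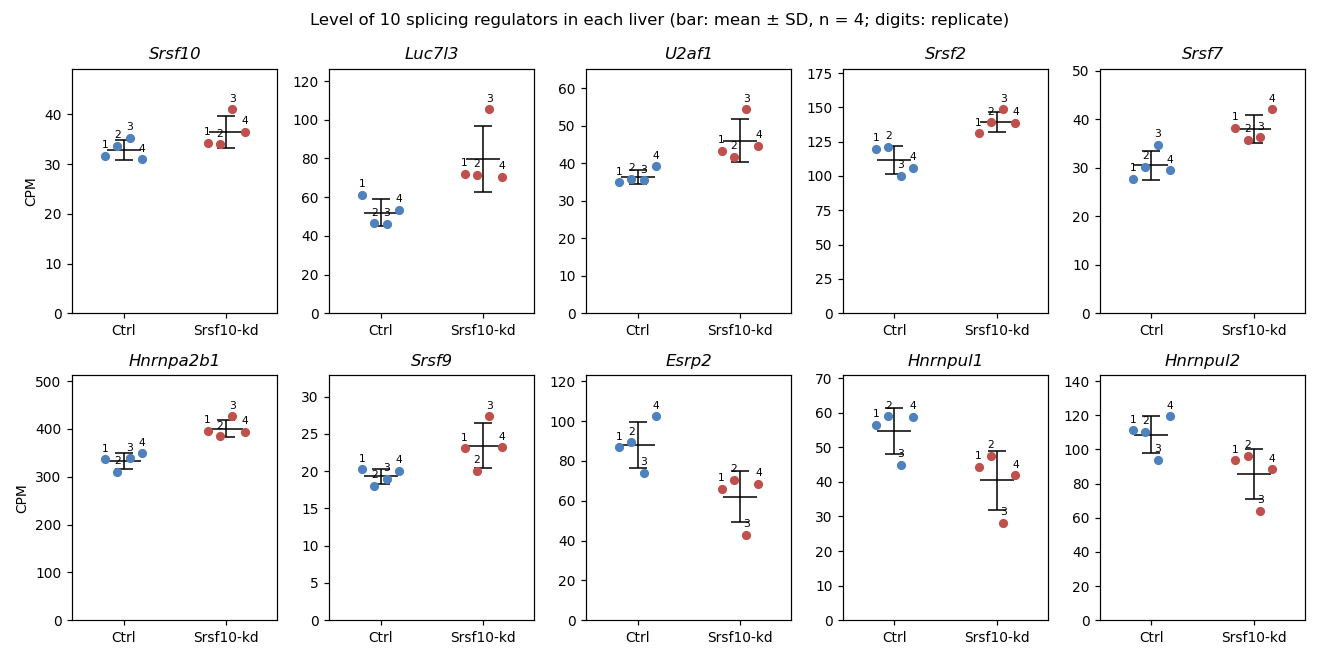
CPM (vertical axis, from 0) of *Srsf10* and of the 9 members with the smallest unadjusted p in each direction, for 4 *Ctrl* livers (blue) and 4 livers labelled *Srsf10-kd* (red); bars are the mean ± SD and digits the replicate. *Srsf10* overlaps between groups (30.9 to 35.3 against 34.0 to 41.0 CPM), whereas *Luc7l3*, *U2af1*, *Srsf2*, *Srsf7*, *Hnrnpa2b1* and *Esrp2* do not.

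The 22 hnRNPs and PTB proteins were split, 12 with higher and 10 with lower means under the *Srsf10-kd* label (median log2 fold change 0.04). At an unadjusted p under 0.05 there were 2 higher (*Hnrnpa2b1* and *Hnrnpa0*, 9.09%, background 11.2%) and 2 lower (*Hnrnpul1* and *Hnrnpul2*, 9.09%, background 10.6%). Summed, *Ctrl* livers held 1927 ± 77.8 CPM (SD, n = 4) and the other group 1995 ± 9.24 CPM (SD, n = 4), and the groups overlapped.

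*Hnrnpa2b1* (ENSMUSG00000004980, chr6:51460932-51469894), a nuclear RNA-binding protein that also sorts RNA into transport granules, was the most abundant of the 51 members per length, at 212 ± 22.7 CPM per kilobase (SD, n = 8). It stood at 396, 385, 426 and 394 CPM in *Srsf10-kd* 1 to 4. It stood at 336, 310.1, 338 and 349 CPM in *Ctrl* 1 to 4. Every liver labelled *Srsf10-kd* lay above every *Ctrl* liver. The log2 fold change was 0.26 (SE 0.10, adjusted p = 0.179 in edgeR and 0.0340 in DESeq2; 0.0340 to 0.383 over the alternatives), and no stretch of 75 bases was shared with another gene. *Hnrnpa0*, an intronless relative, ranged from 50.98 to 78.1 CPM in livers labelled *Srsf10-kd* and from 44.6 to 53.1 CPM in *Ctrl* livers (log2 fold change 0.33, SE 0.14, adjusted p = 0.203 in edgeR).

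*Hnrnpul1* (ENSMUSG00000040725, chr7:25721165-25754757) and *Hnrnpul2* (ENSMUSG00000071659, chr19:8820010-8834143) are relatives of *Hnrnpu* that act at transcription and at DNA breaks. *Hnrnpul1* stood at 44.4, 47.6, 28.1 and 41.9 CPM in *Srsf10-kd* 1 to 4 and at 56.5, 59.0, 44.9 and 58.8 CPM in *Ctrl* 1 to 4. *Hnrnpul2* stood at 93.7, 96.2, 64.0 and 88.2 CPM in *Srsf10-kd* 1 to 4 and at 111, 110.2, 93.9 and 119 CPM in *Ctrl* 1 to 4. In both genes the lowest liver of each group was replicate 3, and only *Ctrl* 3 came within the range of livers labelled *Srsf10-kd*. The log2 fold changes were -0.44 (SE 0.17, adjusted p = 0.187 in edgeR) for *Hnrnpul1* and -0.35 (SE 0.14, adjusted p = 0.209 in edgeR) for *Hnrnpul2*, and they were -0.38 and -0.19 after removal of the length trend. limma-voom with sample quality weights called *Hnrnpul1* (adjusted p = 0.0326; 0.0266 to 0.373 over the alternatives) but not *Hnrnpul2* (0.0579 to 0.427). *Hnrnpu* itself, a scaffold of nuclear matrix and chromatin, had a log2 fold change of 0.12 (SE 0.15), or 0.40 after removal of the length trend.

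*Hnrnpf*, which binds runs of guanines, was lower in every liver labelled *Srsf10-kd* (55.9, 58.2, 61.7 and 60.2 CPM) than in any *Ctrl* liver (62.4, 63.3, 64.6 and 62.6 CPM). The margin was small, with a log2 fold change of -0.10 (SE 0.09, adjusted p = 0.485 in edgeR), and 55.9% of its 75-base stretches also occur in other genes, among them *Gm6430* and *Gm7446*. *Hnrnpr*, an mRNA-binding protein with a very long annotated transcript of 21452 bases, was the least abundant of the class per length, at 1.55 ± 0.114 CPM per kilobase (SD, n = 8). It stood at 32.3, 31.8, 31.9 and 32.9 CPM in *Srsf10-kd* 1 to 4 and at 31.7, 31.3, 36.6 and 37.7 CPM in *Ctrl* 1 to 4. Its log2 fold change of -0.09 (SE 0.10) became 0.33 after removal of the length trend, so no direction is given. The repressors *Ptbp1* and *Ptbp3*, which bind pyrimidine tracts, had log2 fold changes of -0.21 (SE 0.14) and -0.18 (SE 0.10), the latter 0.05 after removal of the length trend. The other 13 members ranged from -0.08 (*Hnrnph2*) to 0.25 (*Hnrnpc*, which binds uridine tracts), and none had an unadjusted p under 0.05. *Hnrnpa1*, *Hnrnpa3* and *Hnrnpab* share 27.0%, 26.1% and 20.9% of their 75-base stretches with other genes, and their values of -0.04, -0.04 and 0.10 are uncertain for that reason.

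None of the 6 kinases had an unadjusted p under 0.05 in edgeR, and none was called by DESeq2 or limma-voom. *Clk1*, which phosphorylates SR proteins in nuclear speckles, was the most abundant per length at 42.2 ± 3.89 CPM per kilobase (SD, n = 8). It stood at 79.7, 79.0, 82.5 and 83.5 CPM in *Srsf10-kd* 1 to 4 and at 67.3, 69.5, 66.4 and 79.2 CPM in *Ctrl* 1 to 4. *Ctrl* 4 reached into the other group, and the log2 fold change was 0.20 (SE 0.10, adjusted p = 0.249 in edgeR), or 0.35 after removal of the length trend. *Clk2*, *Clk3* and *Clk4*, its paralogues, had log2 fold changes of 0.00 (SE 0.19), 0.15 (SE 0.13) and 0.09 (SE 0.11). *Srpk2*, which with *Srpk1* prepares SR proteins for nuclear import, was the least abundant at 2.31 ± 0.196 CPM per kilobase (SD, n = 8). It stood at 13.5, 15.3, 15.8 and 12.7 CPM in *Srsf10-kd* 1 to 4 and at 15.4, 14.8, 15.7 and 16.5 CPM in *Ctrl* 1 to 4. The SRPK estimates of -0.13 (*Srpk2*, SE 0.11) and -0.03 (*Srpk1*, SE 0.13) turned to 0.11 and 0.13 after removal of the length trend, and the median of the class (0.05) turned to -0.04 without *Ctrl* 3.

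**Figure D3:**
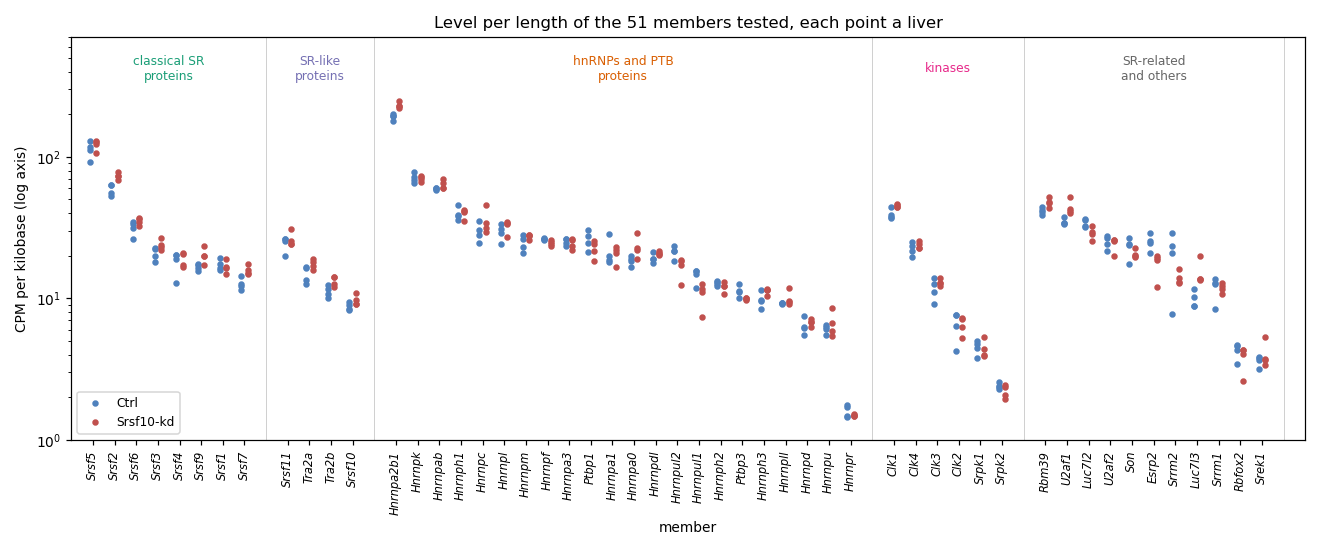
CPM per kilobase of the longest coding transcript (vertical, log axis) of each tested member in 4 *Ctrl* livers (blue) and 4 livers labelled *Srsf10-kd* (red), ordered by level within a class. Levels span from 1.55 (*Hnrnpr*) to 212 (*Hnrnpa2b1*) on average, far more than the difference between groups of any member.

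The 11 SR-related and other splicing regulators held the largest estimates in each direction. Their median log2 fold change was -0.04, with 4 higher and 7 lower means, and it turned to 0.08 after removal of the length trend. At an unadjusted p under 0.05 there were 2 higher (*Luc7l3* and *U2af1*, 18.2%, background 11.2%) and 1 lower (*Esrp2*, 9.09%, background 10.6%).

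*Luc7l3* (ENSMUSG00000020863, chr11:94287890-94321988), a relative of the yeast U1 snRNP protein Luc7 with an arginine and serine rich tail, stood at 72.1, 71.6, 105 and 70.4 CPM in *Srsf10-kd* 1 to 4. It stood at 61.1, 46.5, 46.4 and 53.6 CPM in *Ctrl* 1 to 4. The groups did not overlap, and *Srsf10-kd* 3 stood far above the other livers of its label. The log2 fold change was 0.62 (SE 0.16, adjusted p = 0.119 in edgeR and 0.0159 in DESeq2; 0.0159 to 0.322 over the alternatives), and it was 0.46 without *Srsf10-kd* 3 and 0.81 after removal of the length trend. No stretch of 75 bases was shared with another gene. *Luc7l2*, its paralogue, had the lower mean in livers labelled *Srsf10-kd*, at 109 to 139 CPM in livers labelled *Srsf10-kd* and 137 to 155 CPM in *Ctrl* livers (log2 fold change -0.23, SE 0.11, adjusted p = 0.240 in edgeR), with 19.7% of its 75-base stretches shared with other genes.

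*U2af1* (ENSMUSG00000061613, chr17:31647081-31658892), the small subunit of the factor that recognises the AG at the end of introns, stood at 43.3, 41.6, 54.4 and 44.7 CPM in *Srsf10-kd* 1 to 4. It stood at 34.9, 35.8, 35.4 and 39.2 CPM in *Ctrl* 1 to 4. The groups did not overlap, and the log2 fold change was 0.34 (SE 0.11, adjusted p = 0.151 in edgeR; 0.0335 to 0.848 over the alternatives). *U2af1* had the shortest longest transcript of the 52 genes, 1046 bases, and its estimate was 0.05 after removal of the length trend. Stretches of 75 bases shared with other genes made up 18.7% of the total. Its partner *U2af2*, the large subunit that binds the pyrimidine tract, had a log2 fold change of -0.04 (SE 0.12).

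*Esrp2* (ENSMUSG00000084128, chr8:106130319-106136974), which drives the epithelial splicing programme and in hepatocytes its adult form, stood at 65.9, 70.6, 42.9 and 68.7 CPM in *Srsf10-kd* 1 to 4. It stood at 86.9, 89.3, 74.2 and 102 CPM in *Ctrl* 1 to 4. No liver crossed into the range of the other label, and the lowest of each was replicate 3. The log2 fold change was -0.51 (SE 0.17, adjusted p = 0.154 in edgeR and 0.0847 in DESeq2; 0.0265 to 0.335 over the alternatives), and it was -0.47 after removal of the length trend. Markers of another epithelial cell moved in the opposite direction. The 4 cholangiocyte markers summed to 18.5 to 23.8 CPM in livers labelled *Srsf10-kd* and 12.4 to 17.1 CPM in *Ctrl* livers. In edgeR 2 of 4 (*Krt19* and *Epcam*) had an unadjusted p under 0.05 and none passed an adjusted p of 0.05. *Krt19* had an adjusted p of 0.00776 in DESeq2 and 0.00816 in limma-voom, and *Epcam* 0.0572 and 0.0580. The 6 hepatocyte markers overlapped between groups and none had an unadjusted p under 0.05. The part of cell composition in the *Esrp2* difference was not tested.

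*Rbm39*, a coactivator and splicing factor related to U2AF, was the most abundant of the class at 44.5 ± 4.37 CPM per kilobase (SD, n = 8). It stood at 135, 123, 146 and 133 CPM in *Srsf10-kd* 1 to 4 and at 124, 118, 108 and 115 CPM in *Ctrl* 1 to 4 (log2 fold change 0.21, SE 0.10, adjusted p = 0.245 in edgeR). *Srek1*, an SR-related regulator that binds other SR proteins, was the least abundant at 3.82 ± 0.644 CPM per kilobase (SD, n = 8). It stood at 21.6, 23.7, 33.7 and 23.3 CPM in *Srsf10-kd* 1 to 4 and at 23.9, 23.4, 19.9 and 24.3 CPM in *Ctrl* 1 to 4. Only *Srsf10-kd* 3 was high, and the log2 fold change of 0.16 (SE 0.15) was 0.00 without that liver. After removal of the length trend it was 0.41, and the groups then did not overlap.

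*Srrm2*, a scaffold of nuclear speckles, had the lowest estimate of the members as fitted, -0.53 (SE 0.32, adjusted p = 0.328 in edgeR), and was looked at after its values were seen. After removal of the length trend it was -0.18, nearer to 0 than *Esrp2* at -0.47. It stood at 123, 142, 115 and 116 CPM in *Srsf10-kd* 1 to 4 and at 208, 185, 68.8 and 256 CPM in *Ctrl* 1 to 4. *Ctrl* 3 lay below every liver of the other label, while the remaining *Ctrl* livers lay above all of them. Without *Ctrl* 3 *Srrm2* was the 1 member past an adjusted p of 0.05 in edgeR, and 3.47% of all genes passed there. *Son*, the other speckle scaffold, and *Srrm1*, which joins SR proteins to the exon junction complex, had log2 fold changes of -0.16 (SE 0.14) and -0.01 (SE 0.15), with *Ctrl* 3 the lowest of the 8 livers in both (154 and 31.8 CPM). Removal of the length trend turned both, to 0.16 and 0.13. *Rbfox2*, which binds GCAUG, had a log2 fold change of -0.16 (SE 0.17), or 0.08 after that removal.

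**Figure D4:**
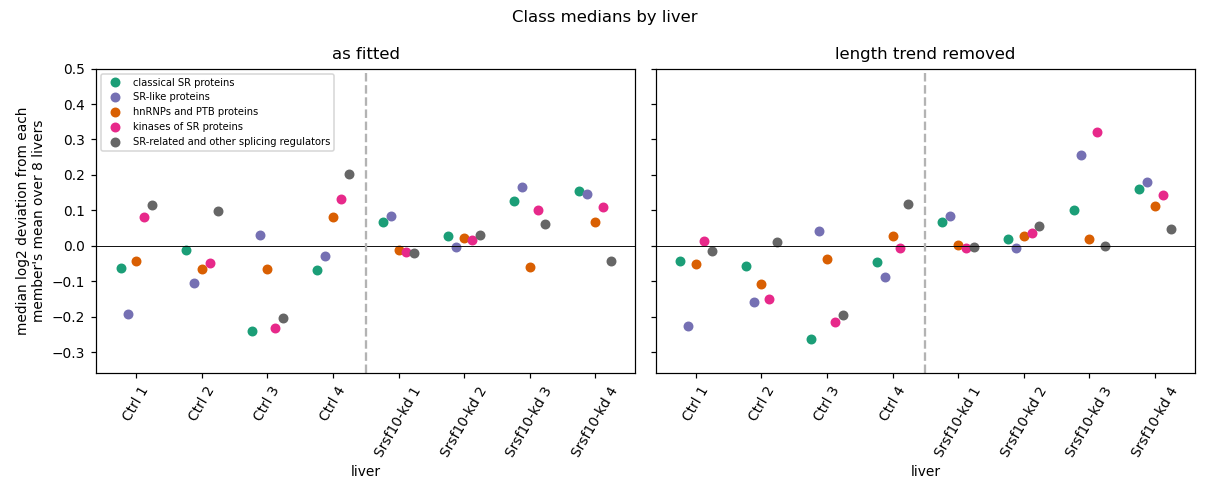
Median log2 deviation of the members of each class (vertical axis; each member from its mean over 8 livers) in each liver, as fitted (left) and after removal of the length trend (right). *Ctrl* 3 is the lowest liver for classical SR proteins (-0.24), kinases (-0.23) and SR-related regulators (-0.20), but not for SR-like proteins (0.03).

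*Srsf10-kd* 3 and *Ctrl* 3 weighed on these classes in different ways. In *Ctrl* 3 the median log2 deviation of the classical SR proteins from their means over the livers was -0.24, against -0.07 to -0.01 in the other *Ctrl* livers, and that of the kinases was -0.23. In *Srsf10-kd* 3 the median deviations were between -0.06 (hnRNPs and PTB proteins) and 0.17 (SR-like proteins). The class medians of the classical SR proteins and the SR-like proteins remained above 0 under every alternative (0.13 to 0.22 and 0.17 to 0.26). Those of the kinases and of the SR-related regulators did not keep 1 direction (-0.04 to 0.14 and -0.14 to 0.08). With *Ctrl* 3 and *Srsf10-kd* 3 both left out, a choice made after the data were seen, edgeR called 5 members, *Srsf7* and *Tra2b* higher and *Hnrnpul1*, *Srrm2* and *Esrp2* lower, or 9.80% of members against 8.62% of all genes.

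The differences of members were related to transcript length as those of all genes were. Across the 51 members, which share the 8 libraries, Spearman's rho between the log2 fold change and the longest annotated transcript was -0.43 (Pearson's r on log2 length -0.40), and across 15429 genes it was -0.51. Once the length trend had been taken out of each library, rho was 0.30 across members and -0.01 across all genes. Among the 29 members with a longest transcript under 4000 bases 21 had higher means (median log2 fold change 0.12), and among the 22 longer ones 10 did (-0.02). After removal of the trend, the medians were 0.10 and 0.15. It turned 10 estimates from below to above 0 (*Srsf1*, *Hnrnpa3*, *Hnrnph2*, *Hnrnpr*, *Ptbp3*, *Srpk1*, *Srpk2*, *Srrm1*, *Son* and *Rbfox2*) and 0 the other way. Length here is that of the longest annotated transcript of any kind, whereas levels per kilobase use the longest coding transcript. For *Clk1* these are 4865 and 1796 bases, while for *Srsf1* both are 5362 bases. Whether the coding length would give the same changes was not tested. The part of RNA integrity or of library preparation in this trend was not tested.

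**Figure D5:**
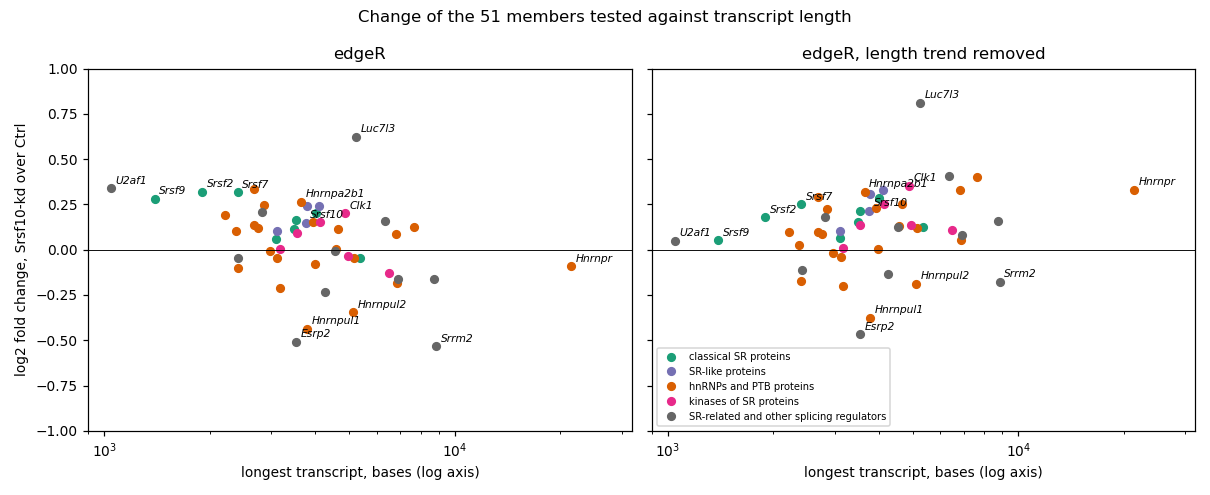
Log2 fold change, livers labelled *Srsf10-kd* over *Ctrl* (vertical axis), against the longest annotated transcript (log axis, bases) of the 51 members, coloured by class, as fitted (left) and after removal of the length trend (right). *U2af1* and *Srsf9*, the shortest, move from 0.34 and 0.28 to 0.05 each, while *Luc7l3* moves from 0.62 to 0.81 and *Esrp2* from -0.51 to -0.47.

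The members share features of annotation that the choice of genes did not use. In GENCODE M21, 38 of 52 (73.1%) have at least 1 transcript annotated for nonsense-mediated decay, against 27.7% of 13396 tested protein-coding genes, and 43 (82.7%) have a transcript with a retained intron, against 57.5%. Their median number of annotated transcripts is 10, against 5, and annotation depth differs between genes. How counts were divided between these transcripts cannot be read from a table of counts per gene.

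The 3 members that DESeq2 called show how different the starts of these genes are. The bases before the RefSeq start (GRCm38.p6) are given for the gene's strand, 5′ to 3′, without bases that GENCODE M21 places in an exon on either strand. All 3 genes lie on the minus strand. Capitals mark matches on either strand to the GC box (GGGCGG), the CCAAT box (CCAAT), the ETS core (CCGGAA) and the TATA box (TATAAA), and 2 GC boxes of *Srsf2* overlap each other.
Luc7l3, chr11:94321989-94322213: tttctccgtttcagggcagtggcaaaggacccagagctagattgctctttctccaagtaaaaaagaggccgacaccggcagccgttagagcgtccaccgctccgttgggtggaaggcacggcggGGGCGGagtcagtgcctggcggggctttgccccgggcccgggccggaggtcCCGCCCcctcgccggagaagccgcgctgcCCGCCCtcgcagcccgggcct
Srsf2, chr11:116853095-116853294: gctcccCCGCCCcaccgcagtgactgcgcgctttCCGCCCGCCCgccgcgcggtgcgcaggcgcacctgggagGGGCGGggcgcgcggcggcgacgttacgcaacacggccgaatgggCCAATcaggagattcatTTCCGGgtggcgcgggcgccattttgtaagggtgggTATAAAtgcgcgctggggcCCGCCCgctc
Hnrnpa2b1, chr6:51469895-51470144: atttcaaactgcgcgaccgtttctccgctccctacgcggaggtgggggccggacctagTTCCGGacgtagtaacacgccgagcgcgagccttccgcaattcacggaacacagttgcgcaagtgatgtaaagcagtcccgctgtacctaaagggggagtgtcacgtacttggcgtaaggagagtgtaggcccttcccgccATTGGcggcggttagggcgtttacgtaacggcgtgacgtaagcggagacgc
*Luc7l3* holds 3 GC boxes and no other of these motifs. *Srsf2* holds 5 GC boxes and 1 each of the other motifs, and annotated exon bases cut its stretch short at the 5′ end. *Hnrnpa2b1* holds a CCAAT box and an ETS core. Of 52 members 45 matched a RefSeq start. In the 250 bases before at least 1 of its starts, a GC box was found for 75.6% of them, against 60.6% of 11096 tested genes and 35.4% of 27025 genes in all. The CCAAT box was found in 55.6%, against 40.2% and 37.5%, the ETS core in 28.9%, against 23.9% and 13.6%, and the TATA box in 6.67%, against 8.73% and 14.3%. A match is a match of letters and not a bound site.

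Beside the members, 4 further lists were read: core spliceosome, SR protein modification and transport, nonsense-mediated decay and other splicing regulators. None of their tested genes passed an adjusted p of 0.05 in edgeR, and 34 of 146 had an unadjusted p under 0.05 (23.3%, background 21.8%). DESeq2 called 8 (5.48%, against 5.75% of all genes) and limma-voom called 20 (13.7%, against 11.7%). Of 56 genes of the core spliceosome, 10 were higher and 4 lower at an unadjusted p under 0.05 (25.0%, background 21.8%). The higher ones were led by *Snrpd1* (log2 fold change 0.58, SE 0.16), *Bcas2* (0.43, SE 0.12) and *Snrpf* (0.62, SE 0.19). *Aqr* (-0.64, SE 0.18), *Snrnp200* (-0.57, SE 0.21) and *Sf3b1* (-0.30, SE 0.12) led the lower ones. *Srsf10-kd* 3 was the highest liver for *Snrpd1*, *Bcas2* and *Snrpf* (18.6, 43.9 and 13.3 CPM, next of its label 12.8, 34.4 and 8.30). It was the lowest for *Aqr*, *Snrnp200* and *Sf3b1* (9.24, 34.2 and 98.4 CPM). The Sm proteins *Snrpd1* and *Snrpf*, which form the ring on spliceosomal snRNAs, have short transcripts and gave 0.25 and 0.28 after removal of the length trend, while *Bcas2* gave 0.51. The RNA helicase *Snrnp200*, which unwinds U4 from U6, gave -0.32, *Aqr* gave -0.50 and *Sf3b1* gave -0.08.

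Of 23 tested genes of SR protein modification and transport, 6 were lower and none higher at an unadjusted p under 0.05 (26.1% lower, background 10.6%). *Prpf4b*, a kinase of spliceosomal proteins, had the smallest p of them. It stood at 37.1, 35.8, 33.3 and 33.6 CPM in *Srsf10-kd* 1 to 4 and at 46.6, 47.8, 41.7 and 49.997 CPM in *Ctrl* 1 to 4. The groups did not overlap, and the log2 fold change was -0.41 (SE 0.10, adjusted p = 0.115 in edgeR and 0.00503 in DESeq2), or -0.14 after removal of the length trend. *Cdk13*, a kinase of RNA polymerase II, and *Tnpo1*, an import receptor of hnRNPs, followed (-0.48, SE 0.16, and -0.29, SE 0.10), and these gave -0.13 and -0.02. *Tnpo3*, the import receptor of phosphorylated SR proteins, was also lower at this threshold (-0.25, SE 0.09, or -0.14 after removal of the trend).

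Of 16 genes of nonsense-mediated decay, 4 were higher and 4 lower at an unadjusted p under 0.05 (8 of 16, background 21.8%). *Upf3b*, which links the decay factors to exon junctions, stood at 25.2, 24.0, 40.1 and 24.9 CPM in *Srsf10-kd* 1 to 4 and at 19.0, 16.8, 15.2 and 17.8 CPM in *Ctrl* 1 to 4. The groups did not overlap (log2 fold change 0.73, SE 0.17, adjusted p = 0.115 in edgeR and 0.00825 in DESeq2), and *Srsf10-kd* 3 was the highest. *Magohb* and *Rbm8a*, of the exon junction complex, were also higher (0.81, SE 0.25, and 0.49, SE 0.15), again with *Srsf10-kd* 3 the highest liver (4.65 and 79.9 CPM). After removal of the length trend *Upf3b* gave 0.67, *Magohb* 0.49 and *Rbm8a* 0.46. *Nbas*, *Smg1* and *Smg8* were lower (-0.66, SE 0.21, for the first and second alike, and -0.33, SE 0.13), and they gave -0.40, -0.21 and -0.32 after removal of the length trend. *Srsf10-kd* 3 was the lowest liver for each of them (9.55, 28.3 and 6.73 CPM). Of 51 tested genes of the list of other splicing regulators, 3 were higher and 3 lower (11.8%, background 21.8%). They were *Srek1ip1*, *Elavl1* and *Rbm25* (0.53, 0.31 and 0.53) and *Rbm10*, *Nono* and *Ddx17* (-0.27, -0.30 and -0.33). *Srsf10-kd* 3 was the highest liver for the higher ones (30.7, 43.4 and 188 CPM) and the lowest for the lower ones (19.3, 53.0 and 94.4 CPM). After removal of the length trend *Elavl1* gave 0.52 and *Ddx17* -0.19.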

How the data were processed

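Livers were compared as whole-tissue RNA, 4 labelled *Srsf10-kd* and 4 labelled *Ctrl*. The authors selected poly(A) RNA, aligned reads to GRCm38 with STAR (version 2.7.7a per the submitters' processing notes) and deposited gene counts that are not normalized. The annotation release and strand setting behind the counts are not given in the sources used here. Deposited counts totalled 50456404 to 59697241 per liver; no pair of libraries agreed within sampling noise.

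Counts were analysed in R 4.3.3 with edgeR 4.0.16 (TMM, filterByExpr, quasi-likelihood test on condition, two-sided, Benjamini-Hochberg over 15491 genes, threshold 0.05). log2 CPM used a prior count of 2. DESeq2, a tool the authors also used (here version 1.42.0), and limma 3.58.1 (voom) were alternatives. Further ones were other scalings and filters, removal of each library's lowess trend (span 0.5) on transcript length, a replicate block and each liver left out. With 4 livers per group, the smallest exact permutation p is 0.0286, which any gene whose groups do not overlap reaches. Symbols, positions and lengths came from GENCODE M21. *Qki*, *Prmt1* and *Tf* of the wider lists were not analysed here. The members and lists were chosen with earlier results of these data known. Named in full were *Srsf10*, up to 6 members per direction with the smallest unadjusted p under 0.05, those past an adjusted p in edgeR or DESeq2, and the most and least abundant member per kilobase of each class. Of other lists, up to 3 genes per direction were named by the same rule, and *Tnpo3*, *Srrm2*, *Hnrnpf* and other members outside the rule were described after their values were seen.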

Additional observations from a re-analysis of the deposited data

Results flagged for a closer look

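Across 102 sets of 4 livers (51 members in each of 2 labels), 7 held a liver far from the other 3 of its label by Dixon's gap test. Chance flags about 1 in 20 such sets, or 5.10 here. *Ctrl* 3 was the low liver for *Srsf4* (29.1 CPM, others 42.8 to 45.5) and *Srsf11* (62.2 CPM, others 79.2 to 81.8). *Srsf10-kd* 3 was the low liver for *Hnrnpl* (72.2 CPM, others 90.03 to 92.8), *Esrp2* (42.9 CPM, others 65.9 to 70.6) and *U2af2* (43.8 CPM, others 55.2 to 56.4), and the high liver for *Luc7l3* (105 CPM, others 70.4 to 72.1). *Srsf10-kd* 2 was the low liver for *Hnrnpm* (101 CPM, others 109 to 110.3).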

How the results depend on the processing

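*Srsf10* stayed between 0.09 and 0.21 (log2) under all 17 alternatives, past an adjusted p of 0.05 in none. The number of all genes called, 11 in edgeR, was 890 in DESeq2, 1814 in limma-voom, 46 without a filter and 0 to 544 with 1 liver left out, and 1342 without *Ctrl* 3 and *Srsf10-kd* 3; it was 544 without *Ctrl* 3, 64 without *Srsf10-kd* 3, and 0 without *Srsf10-kd* 1, 2 or 4 or *Ctrl* 2, where edgeR still gave 2154 to 3656 genes at an unadjusted p under 0.05. Members called, 0 in edgeR, were 3 in DESeq2, 8 in limma-voom, 5 without both livers and 0 to 1 with 1 liver left out. Members lower at an unadjusted p under 0.05, 3 in edgeR, were 6 in limma-voom and 6 without both livers. With 1 liver left out they were 1 to 6 (6 without *Ctrl* 3, 1 without *Ctrl* 1, 2 or 4). The 8 higher ones were 4 to 8 with 1 liver left out (4 without *Ctrl* 2, 5 without *Srsf10-kd* 4). Over all 17 alternatives the higher ones were 4 to 11. In limma-voom 33.3% of members passed this threshold in either direction, against 31.4% of all genes. Members whose groups do not overlap were 5 to 12 higher (12 without *Srsf10-kd* 2, where 10.9% of all genes were; 8 without *Ctrl* 1 or 4, 8.71% and 8.29%) and 2 to 7 lower (7 without *Ctrl* 3, 16.4%; 5 without *Srsf10-kd* 2, 10.4%).

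The median of the members (0.10) was 0.04 to 0.12 with 1 liver left out and 0.022 without both. Leaving out 1 liver gave medians of 0.15 to 0.22 for classical SR proteins, 0.17 to 0.24 for SR-like proteins, 0.0081 to 0.11 for hnRNPs and PTB proteins, -0.04 to 0.12 for kinases and -0.14 to 0.00 for SR-related regulators. Of the members named by rule, removal of the length trend reversed *Hnrnpr* (0.33) and *Srpk2* (0.11); limma-voom reversed *Srek1* (-0.016) and *Srsf11* (-0.046), as did leaving out both livers (-0.060 and -0.075), while leaving out 1 liver gave 0.00 to 0.23 and 0.01 to 0.14. Genes of the 4 further lists called, 0 in edgeR, were 8 in DESeq2, 20 in limma-voom, 18 without both livers and 0 to 3 with 1 left out (3 without *Ctrl* 3). Deviations of same-numbered livers correlated at -0.18, 0.21, 0.27 and 0.22 for numbers 1 to 4; since number 1 did not exceed 0.1 and the labels name no shared litter or day, the numbers were not taken to pair livers. With a replicate block edgeR called 59 of all genes, 0 members and 1 gene of the further lists, and removing the number's effect in this way left *Srsf10* at 0.15. The cause of these differences was not tested. Of the members, depth (at least 50456404 counts per liver) kept only *Srsf12* from being tested. Leaving out both livers was chosen after the data were seen.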
